A study of Homo sapiens with 2 samples.

Results

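The 10 genes described here encode the core proteins of the microRNA pathway. They are the Argonautes AGO1, AGO2, AGO3 and AGO4, the RNA-cutting enzymes DROSHA and DICER1 with their partners DGCR8 and TARBP2, the export receptor XPO5 and the silencing protein TNRC6A. They were taken by name, and every array probe whose RefSeq accession belongs to them was used, which gave 14 probes for all 10 of the 21743 genes that could be named. Expression was compared between 2 cultures of MRC-5 cells, which are cultured fibroblasts from human fetal lung. Both carried a transfected small interfering RNA (siRNA), a control siRNA in the first culture and an siRNA against periostin in the second, which was given at 10 nM for 48 h; the labels state no dose or time for the control. The study asked which genes of lung fibroblasts depend on periostin, a protein of the extracellular matrix. Each condition had 1 culture and 1 array, so there was no replicate, no test between the conditions and no p-value. A culture without any siRNA was not among the samples.

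MicroRNAs are short RNAs that lower the output of the messenger RNAs they pair with. Their long transcripts are cut in the nucleus by DROSHA and its partner DGCR8, the hairpins that result are carried to the cytoplasm by XPO5, and DICER1 with TARBP2 trims them to a duplex. An Argonaute keeps a strand of that duplex as a guide, and GW182 proteins such as TNRC6A bind the Argonaute and bring in the enzymes that shorten and decay the target. Transfected siRNAs enter the same Argonautes, and AGO2 is the human Argonaute known for cutting a fully paired target.

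RNA was hybridized to 1-colour Agilent arrays, on which the brightness of a spot stands for the amount of a transcript. Signals are given in intensity units after both arrays were brought to the same 75th percentile, and a ratio is the log2 of the periostin siRNA signal over the control siRNA signal. The error of a probe printed 10 times is the SD over its spots. For a probe printed once it combines the errors that the scanner software estimates for its spots on both arrays. This came to about 0.20 on the log2 scale for most of the probes described here. Over the 457 probes that were printed several times and lay in the signal range of the 10 genes, the pooled SD of the log2 ratio between spots was 0.08. Both kinds of error cover the spots and not the difference between cultures. The signal was well above background for 58.0% of the spots with control siRNA and 58.9% with periostin siRNA, and no spot was saturated. POSTN, the targeted gene, had a signal of 2638 on the control array and 280 on the periostin array (log2 ratio -3.24 ± 0.20, spot error). All 8 fibroblast markers were well above background on both arrays, among them VIM at 189263 and COL1A2 at 71038 with control siRNA. Of the markers of other cells, 4 of 5 epithelial, 2 of 3 endothelial and 2 of 4 immune markers were also well above background on both arrays. The brightest of these were KRT18 and CD68, at 3048 and 1528 with control siRNA. CDH1, PECAM1 and LAPTM5 were not well above background on either array. The summed signal of the 5 epithelial markers was 3870 on the control array and 5736 on the periostin array, that of the 3 endothelial markers 124 and 128, and that of the 4 immune markers 1551 and 2494. EPCAM went from 34.6 to 135 and CD68 from 1528 to 2451. Their part in the results below was not tested.

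None of the 10 genes differed by 2-fold or more between the arrays. All 14 of their probes were well above background on both arrays. Within the family AGO2, AGO3 and XPO5 were lower with periostin siRNA, AGO4 and TNRC6A were higher, and AGO1, DROSHA, DGCR8, DICER1 and TARBP2 lay within 2 spot errors of equal signal. The signals from which these ratios were computed are shown for each probe, which gives the direction of a difference but not its error.

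**Figure D1:**
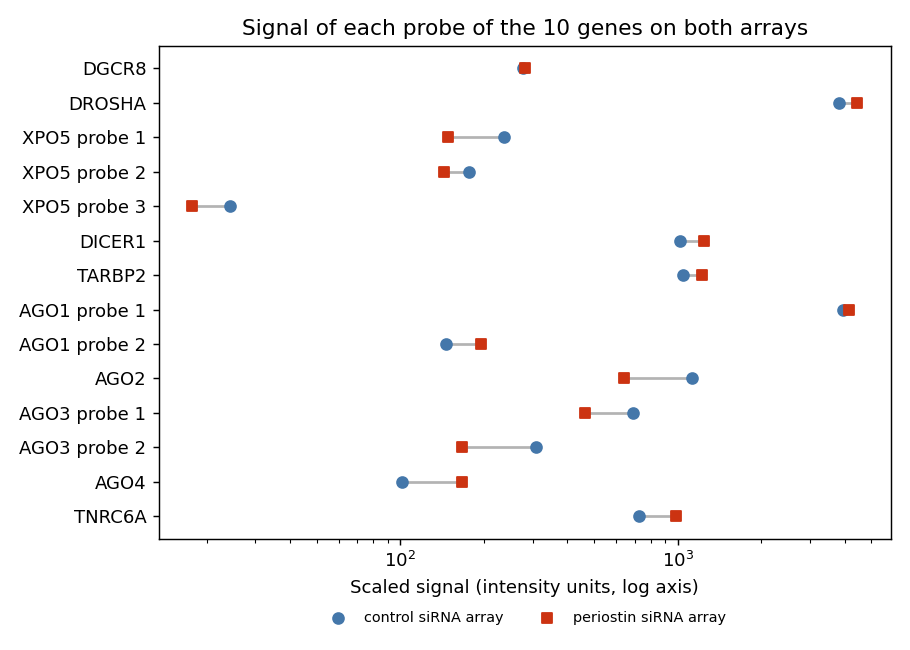
Scaled signal of the 14 probes of the 10 genes in intensity units (log axis), with control siRNA (circles) and periostin siRNA (squares), 1 array each; grey lines join the values of a probe. The square lies to the left for AGO2 and for every probe of AGO3 and XPO5, and to the right for the other genes; levels of different probes are not comparable.

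DROSHA and DGCR8 form the Microprocessor, in which DROSHA cuts the primary transcript and DGCR8 grips the hairpin. DROSHA had a signal of 3810 with control siRNA and of 4447 after periostin siRNA, a log2 ratio of 0.22 ± 0.20 (spot error). DGCR8 had signals of 276 and 282, a log2 ratio of 0.03 ± 0.20 (spot error). Both were thus close to equal on the arrays, and the sign of DGCR8 turned to -0.0067 with normexp, a background correction that fits a background distribution before an offset is added, and to -0.10 when the arrays were scaled on their median. Each was measured by 1 spot per array.

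The stretches before the start of these genes are shown because, among the starts of the 10 genes in the table, these were the ones at the first base of a gene with no other gene across the stretch. They come from the RefSeq promoter table of GRCh38.p14 and hold the 150 bases before the first base of each gene, 5′ to 3′ on the strand of the gene. Capitals mark matches to CCAAT, the CCAAT box, and to GGGCGG, the GC box, on either strand.
DROSHA, chr5:31532094-31532243, minus strand: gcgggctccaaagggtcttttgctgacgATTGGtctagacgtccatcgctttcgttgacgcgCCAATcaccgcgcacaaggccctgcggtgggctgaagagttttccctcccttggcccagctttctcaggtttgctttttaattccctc
DGCR8, chr22:20080091-20080240, plus strand: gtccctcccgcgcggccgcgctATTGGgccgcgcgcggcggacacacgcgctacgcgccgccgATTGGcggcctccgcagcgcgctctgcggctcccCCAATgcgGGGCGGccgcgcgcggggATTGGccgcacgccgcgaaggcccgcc
The DROSHA stretch held 2 CCAAT boxes and no GC box, and the DGCR8 stretch held 4 CCAAT boxes and 1 GC box. A CCAAT box was present in 23.5% and a GC box in 36.8% of the 35116 stretches of this length in the table. The table held 15 starts for 9 of the 10 genes, AGO2 not among them. Of these 15 stretches 7 held a CCAAT box, 9 a GC box and 2 the ETS motif CCGGAAG, which was present in 6.85% of all. TATAAA (the TATA box, 6.71% of all), CACGTG (the E-box, 4.57%), TGACGTCA (the cyclic AMP response element, 1.40%) and TTTCGCGC (an E2F motif, 0.302%) were in none of the 15. These are matches of letters and not sites of a factor. DICER1 and TARBP2 had several starts each, some of DICER1 overlapping, so the 15 stretches are not independent. Their content of G and C went from 32.7% to 81.3% and was mostly above 60%, the median of all stretches. The shares were not adjusted for it.

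XPO5, the receptor that carries the hairpins out of the nucleus, was lower with periostin siRNA by all 3 of its probes. The brightest probe had signals of 236 with control siRNA and 148 after periostin siRNA, a log2 ratio of -0.67 ± 0.20 (spot error). The second probe went from 177 to 144, a log2 ratio of -0.30 ± 0.21, and the third from 24.3 to 17.8, a log2 ratio of -0.45 ± 0.26 (spot errors). Only the brightest probe differed by more than 2 spot errors. The mean over the 3 probes was -0.48, and the normexp background correction brought the brightest probe to -0.41.

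DICER1, which cuts the hairpin to a duplex, had signals of 1018 with control siRNA and 1250 after periostin siRNA, a log2 ratio of 0.30 ± 0.20 (spot error). TARBP2, the double-stranded RNA-binding partner that helps hand the duplex to an Argonaute, had signals of 1045 and 1226, a log2 ratio of 0.23 ± 0.20 (spot error). Both were slightly higher with periostin siRNA, by less than 2 spot errors, and kept this sign under all 9 alternative settings.

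The 4 Argonautes differed in direction. AGO2 was lower by a ratio larger than the spread of its spots. Its probe was printed 10 times, with signals from 1030 to 1203 and a median of 1140 with control siRNA, and from 579 to 671 with a median of 642 with periostin siRNA. The spots of the arrays did not overlap, but how many other probes printed several times had this too was not counted. The log2 ratio was -0.82 ± 0.10 (SD over 10 spots), a 1.77-fold lower signal, and of the 16064 genes with a ratio 8.52% had a lower one. Of these spots, 1 on the periostin siRNA array carried an outlier flag, and without flagged spots the ratio was -0.80.

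**Figure D2:**
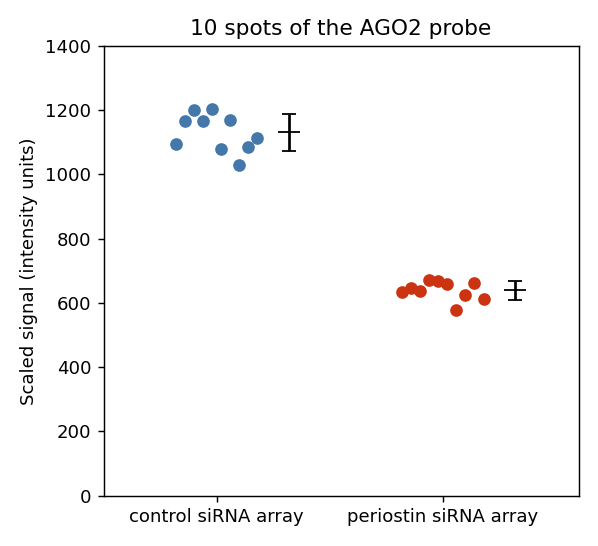
Scaled signal in intensity units of the 10 spots of the AGO2 probe on each array; each point is 1 spot, and the bar gives their mean and SD. The spots lie between 1030 and 1203 with control siRNA and between 579 and 671 with periostin siRNA; they are repeats on 1 array each and not replicate cultures.

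AGO3 was lower too, by both of its probes. The brighter probe had signals of 689 with control siRNA and 464 after periostin siRNA, a log2 ratio of -0.57 ± 0.20, and the other went from 309 to 168, a log2 ratio of -0.89 ± 0.20 (spot errors). The ratios of AGO2 and AGO3 differed from each other by 0.25, little more than the combined spot error of 0.23.

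AGO4 had the dimmest probe among those that stood for the 10 genes, with signals of 101 and 167, and was higher with periostin siRNA at a log2 ratio of 0.72 ± 0.21 (spot error). This size depended on the processing, and the normexp setting, which also used another measure of the spot signal, gave 0.36. AGO1 lay between them. Its bright probe had signals of 3948 and 4160, a log2 ratio of 0.08 ± 0.20, and its dim probe went from 147 to 195, a log2 ratio of 0.41 ± 0.21 (spot errors). The sign of AGO1 turned under scaling on the median, to -0.05. The ratio of AGO4 exceeded that of AGO2 by 1.54 with a combined spot error of 0.23, and that of AGO3 by 1.29 with a combined spot error of 0.29. AGO4, AGO1 and AGO3 are neighbours in this order on chromosome 1 in the RefSeq annotation, so genes that lie side by side had ratios of 0.72, 0.08 and -0.57. The Argonautes are similar in sequence; the probe sequences were not used here, and whether a probe also binds a related transcript was not tested.

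TNRC6A, the GW182 protein that links an Argonaute to the deadenylases, had signals of 726 with control siRNA and 988 after periostin siRNA. Its log2 ratio was 0.44 ± 0.20 (spot error), above 2 spot errors. It was positive under all 9 alternative settings, but within 2 spot errors with normexp, at 0.40, and under scaling on the median, at 0.32.

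**Figure D3:**
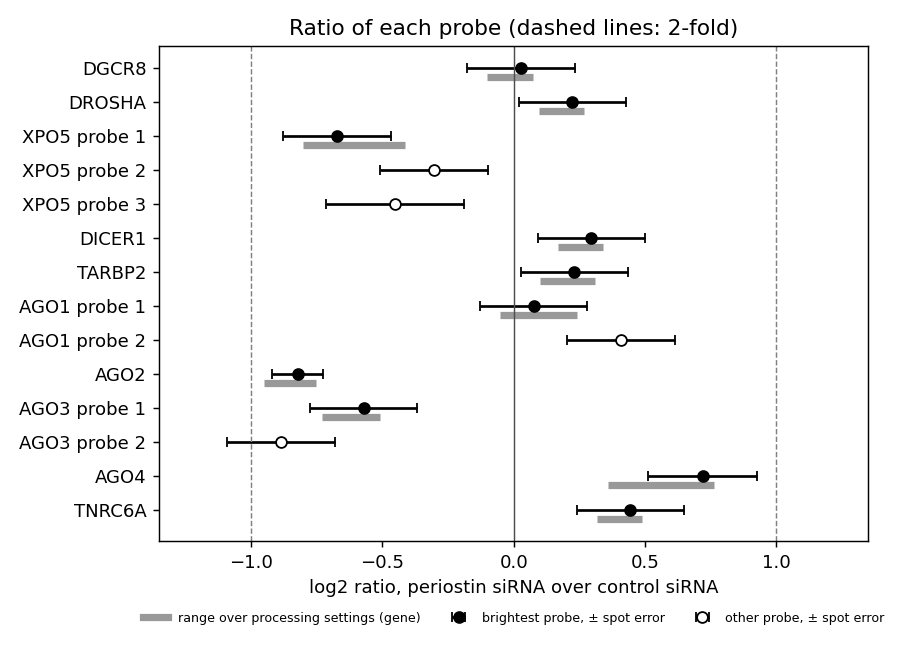
Log2 ratio of periostin siRNA over control siRNA for the 14 probes; bars are the SD over 10 spots for AGO2 and the estimated spot error for the others, filled points are the probe that stood for the gene and grey bars the range of that gene over all processing settings. All points lie inside the dashed 2-fold lines, from -0.89 for an AGO3 probe to 0.72 for AGO4.

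The 10 genes were set beside all 16064 genes with a ratio. None was lower and none higher by more than 3-fold, the threshold of the study, where 2.75% and 3.37% of all genes were. None was lower or higher by more than 2-fold, where 6.42% and 7.97% of all genes were. With 10 genes these shares stand for less than 1 gene in each direction, so a count of 0 does not set the 10 genes apart. By more than 2 spot errors, 3 genes were lower (AGO2, AGO3 and XPO5) and 2 were higher (AGO4 and TNRC6A), against 18.3% and 23.1% of all genes, which is near the same share. This cutoff was not the same ratio for every gene. The error was 0.10 for AGO2, printed 10 times, and 0.20 for DICER1, printed once. Counts and shares by this rule, here and below, pool both kinds of error. The 3 lower calls held under all 9 alternatives, XPO5 only just with normexp, at -0.41 with a spot error of 0.20. The other probes of XPO5 lay within 2 spot errors. The higher calls did not, with 0 of them left with normexp and AGO4 alone under scaling on the median. The median log2 ratio of the 10 genes was 0.15, and that of all genes was 0.06.

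The other genes of the pathway were described with a list of 86 genes in 11 roles, which holds the 10 genes and 76 more. A ratio could be given for 80, of which 44 were below and 36 above 0, with a median log2 ratio of -0.06. Of all genes 45.5% were below 0. By more than 2-fold, 0 were lower and 3 were higher by their brightest probe, namely DDX17, MOV10 and PAN2. Of all genes 6.42% were lower and 7.97% higher by more than 2-fold. Other probes of SRSF3, TSN, FKBP4 and KHSRP were lower past 2-fold, at -1.33, -1.12, -1.06 and -1.03. No other probe was higher past it. None passed 3-fold in either direction. Of the 28 further genes with several measured probes, 7 had probes on both sides of 0.

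Around the Microprocessor, 11 of 14 genes were below 0, with a median of -0.36, where 45.5% of all genes were below 0. DROSHA and DGCR8 themselves, at 0.22 and 0.03, were above 0. By more than 2 spot errors 4 were lower and 1 was higher, against 18.3% and 23.1% of all genes. With normexp or scaling on the median 12 were below 0, DGCR8 among them. The number lower by more than 2 spot errors was 3 without scaling and 8 under scaling on the median, against 16.7% and 24.5% of all genes. DDX17, an RNA helicase that binds the Microprocessor, was the highest, with signals of 1010 and 2114 and a log2 ratio of 1.07 ± 0.20 (spot error), although its dim probe gave 0.46. The splicing factor SRSF3, which also marks primary transcripts for cutting, was the lowest at -0.83 ± 0.20 (spot error), and its second probe gave -1.33. In nuclear export, RAN, the small GTPase that loads XPO5, had a log2 ratio of -0.36 ± 0.20 (spot error), below 0 like XPO5 itself but by less than 2 spot errors, while its other probe gave -0.53 ± 0.20 (spot error).

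Among the partners of DICER1, PRKRA, a relative of TARBP2, was the lowest at -0.40 ± 0.20 and ADAR, which edits double-stranded RNA, the highest at 0.70 ± 0.20 (spot errors), going from 5972 to 9724. The only spot of ADAR carried an outlier flag, so ADAR had no ratio without flagged spots. The chaperones that hold an empty Argonaute open for its duplex were mostly lower. Of 10 genes 9 were below 0, 8 by more than 2 spot errors, with a median of -0.56 and none past 2-fold by its brightest probe. The second probe of FKBP4 was past it, at -1.06 ± 0.21 (spot error). Of all genes 45.5% were below 0 and 18.3% lower by more than 2 spot errors. With normexp, 7 of the 10 passed 2 spot errors, FKBP5 no longer among them. HSPA8, the constitutive HSP70, went from 14962 to 9289, a log2 ratio of -0.69 ± 0.20, and HSP90AB1 from 7477 to 4773, a log2 ratio of -0.65 ± 0.20 (spot errors). HSP90AA1 went from 49253 to 44417, a log2 ratio of -0.15 ± 0.20 (spot error), within its error. Its other probes gave -0.40 ± 0.04 (SD over 10 spots) and -0.16 ± 0.20 (spot error). AHSA1, a cochaperone of HSP90, gave -0.78 ± 0.05 (SD over 10 spots), and the dim FKBP5, another cochaperone, was the lowest at -0.86 ± 0.23 (spot error), which normexp brought to -0.30. DNAJA2 was the highest at 0.07 ± 0.20 (spot error), and lay below 0 too under scaling on the median.

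The 3 GW182 proteins were all above 0, where 45.5% of all genes were below 0. A count of 3 is too small to set this role apart from all genes. TNRC6C had a log2 ratio of 0.64 ± 0.20 (spot error), its dim probe gave 0.71, and TNRC6B, at 0.02 ± 0.20 (spot error), was close to equal; TNRC6B was below 0 under scaling on the median. Of the proteins found with the silencing complex, 5 were below and 6 above 0, near the share of all genes. Under scaling on the median 7 were below and 4 above, where 55.9% of all genes were below 0. MOV10, an RNA helicase that binds Argonautes, was the highest, with signals of 914 and 1854 and a log2 ratio of 1.02 ± 0.20 (spot error), and its dim probe gave 0.83. TSN, a subunit of the nuclease that removes the passenger strand, was the lowest at -0.48 ± 0.20 (spot error), and its other probe gave -1.12.

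Among the deadenylases and their partners, 5 were below and 8 above 0, where 45.5% of all genes were below 0. Their median was 0.14, which was 0.06 with normexp, 0.07 without flagged spots and 0.01 under scaling on the median. PAN2, the catalytic subunit of the PAN2-PAN3 deadenylase, was the highest, with signals of 94.0 and 194 and a log2 ratio of 1.04 ± 0.21 (spot error). CNOT9, the subunit of the CCR4-NOT complex that docks TNRC6 proteins, was the lowest at -0.68 ± 0.21 (spot error). It was dim, with signals of 86.7 and 54.0, and normexp brought it to -0.41, within 2 spot errors. CNOT6 had no probe named through RefSeq. Of the 10 decapping and decay factors none differed by more than 2 spot errors, where 18.3% of all genes were lower and 23.1% higher by more. They ranged from XRN1, the exonuclease that degrades decapped RNA, at -0.40, to PATL1, which ties deadenylation to decapping, at 0.40. XRN1 passed 2 spot errors with normexp, at -0.42, and under scaling on the median, at -0.53, and PATL1 without scaling, at 0.44. In tailing and turnover of microRNAs, TUT4, which adds uridines to microRNA precursors, was the highest at 0.70 ± 0.20 (spot error) and DIS3L2, the exonuclease that degrades such tailed RNA, the lowest by its brightest probe at -0.22 ± 0.21 (spot error). The 4 probes of DIS3L2 lay on both sides of 0, and its ratio was 0.11 as their mean and 0.45 without flagged spots. LIN28A and LIN28B, which block the maturation of let-7, and TRIM71, a silencing partner of Argonautes, were not well above background on either array. So were PIWIL1 and PIWIL3, germline relatives of the Argonautes, while PIWIL4 at -0.07 and the near-background PIWIL2 at 0.13 were within their errors of equal.

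**Figure D4:**
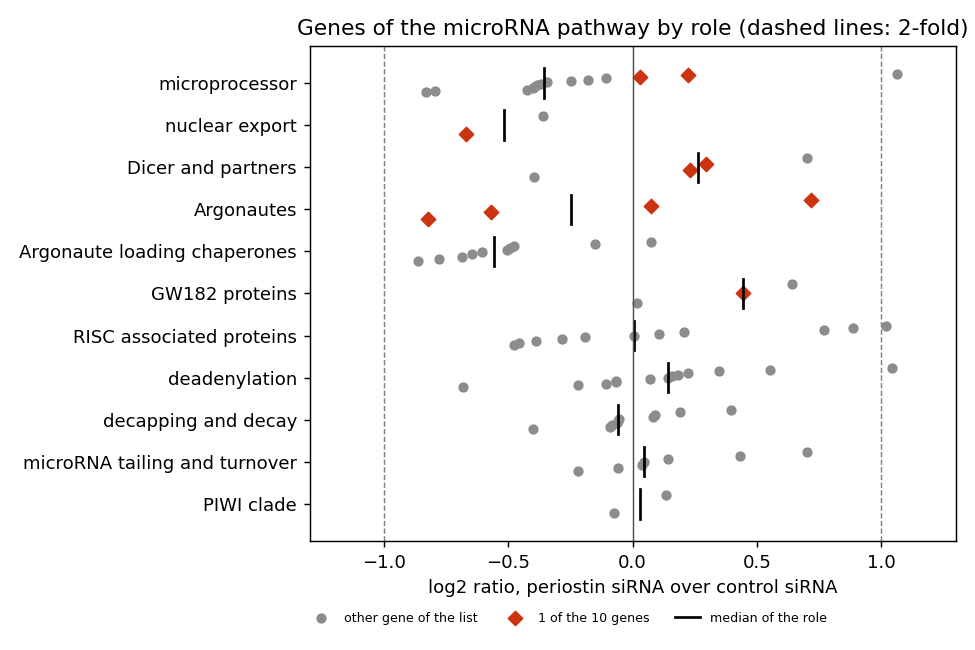
Log2 ratio of periostin siRNA over control siRNA for the 80 measured genes of the microRNA pathway list, 1 point per gene and 1 line per role; diamonds are the 10 genes, vertical bars the medians of the roles and dashed lines 2-fold. The Argonautes spread from -0.82 to 0.72, the loading chaperones have a median of -0.56, and only DDX17, MOV10 and PAN2 lie past a dashed line.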

How the data were processed

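For each Agilent array the authors deposited scanner output (SurePrint G3 Human GE 8x60K v2), with intensity values that Feature Extraction (11.5.1.1 per the file headers, 12.0.3.1 in the submitters' processing notes) had background-subtracted without scaling between arrays. They also deposited a table of normalized intensities, equal to the scanner values of probes printed once times 3.65 (control siRNA) and 3.54 (periostin siRNA).

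Here log2 intensities were centred on the 75th percentile of each array, taken over 58717 non-control spots, with Python 3.11.15, numpy 2.4.6 and pandas 2.3.3, and the figures were drawn with matplotlib 3.10.9. R 4.3.3 with limma 3.58.1 gave the normexp (offset of 50) and quantile alternatives. Normexp started from the median signals of each spot and of its background, not from the background-subtracted intensities. It thus changed the signal measure as well as the background correction, and their parts in its shifts were not separated. Spots of a probe were averaged, and the flag for a signal well above background had to be set on no fewer spots than it was missing from. Each gene was represented by its brightest probe (mean log2 signal over both arrays). If this probe passed on 1 array alone, its ratio is a bound against the lowest signal well above background, or the probe's own if higher. Genes were named through RefSeq accessions, which matched 65.1% of the spots, and spots with other identifiers were not used. Coordinates are given for promoters alone, from GRCh38.p14; the array itself was annotated on hg19.

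The 10 genes and the pathway list, written by role, were chosen with earlier results of these data known; the rule of 2 spot errors was added after the values were seen, and was repeated under each alternative with the same spot errors. Named from the list were every gene past 2-fold by its brightest probe, the highest and lowest of each role, and genes without a probe or ratio. HSPA8, HSP90AA1, HSP90AB1, AHSA1, FKBP4, KHSRP and the marker genes were named after their values were seen. Precision is limited by the number of arrays, and no test was run. The scaling and the gene ratios were run on simulated data with changes put in, where the median of each size of change was recovered. The simulation held no difference between cultures, and the rule of 2 spot errors was not tested on it. The alternatives were other scalings, normexp, quantile normalization, the deposited table, the mean over probes, and filters on dim and flagged spots. Other assays of the study were not analysed here.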

Additional observations from a re-analysis of the deposited data

How the results depend on the processing

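The number of the 10 genes past 2-fold and past 3-fold was 0 under all 9 alternatives. AGO2, AGO3 and XPO5 were lower and AGO4, TNRC6A, DICER1, DROSHA and TARBP2 higher under every one, whereas AGO1 and DGCR8 changed sign. With the arrays scaled on their median, all genes moved by -0.13 in the median, and there were 5 of the 10 genes below 0 against 3, a median of 0.021 for the 10 genes and of -0.19 for the 86-gene list. AGO2 ranged from -0.95 with that scaling to -0.75 with normexp, and AGO4 from 0.36 with normexp to 0.76 without scaling. The normexp correction gave -2.99 for POSTN. DDX17, MOV10 and PAN2 were past 2-fold under 6 of the 9 alternatives each, DDX17 and MOV10 under the same ones; with normexp or scaling on the median 0 genes of the list were past it. With the mean over probes SRSF3 was lower by more than 2-fold. The cause of these shifts was not tested, except that an added offset, as in normexp, shrinks the ratio of a dim probe by construction. No paired analysis was possible because the siRNAs were compared on 1 array apiece, with no replicate to leave out.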
